A study of Rattus norvegicus with 34 samples.

Results

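Gene expression 15 h after mild injury was compared with control replicates 4 to 6 in cultured rat cortical neurons, on 3 mild 15 h arrays and 3 control arrays out of 34 arrays in the series. The arrays were chosen by their titles alone, with no measured value used, and the comparison covers 21881 features, of which 21776 are named genes. Both groups, and the arrays labelled control 1 to 3 and mild 0, 8 and 24 h, were deposited as ratios to the mean of control arrays 1 to 3. That shared divisor cancels in every difference below, and neither group compared was part of it. Ratios were used on the log2 scale, so that 0 is the mean of control 1 to 3, and a difference of 1 is a doubling.

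Per the labels, both groups were primary cortical neurons of Wistar rats, kept in culture for 21 days. The growth protocol names E17 Hooded Wistar embryos, whereas the age label of every sample reads gestation day 15-16. The mild 15 h group was lysed 15 h after its axon bundles were injured, and the control group carries no time label. The protocols describe both a knife cut and a stretch by oxygen puffs, without stating which one was mild. As a model these are pooled samples: cells came from the cortices of 8 to 10 pups, and RNA came from 12 or more wells per time. Litters of different dams gave 3 cultures, but replicate numbers are not tied to a culture, so every p-value covers spread among arrays that may be technical.

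Immediate early genes are switched on within minutes by calcium and growth factor signalling, without new protein synthesis. Many encode transcription factors such as FOS and EGR1, and in neurons they follow synaptic activity as well as injury. Stretching or cutting an axon is known to start calcium entry, stress responses and a programme of axon repair in the cell body, while mature neurons themselves no longer divide.

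Several facts about the arrays bear on every result. The deposited signal table holds its arrays in another order than the labels do. If the labels followed that order, an array labelled mild 15 h would hold mild 24 h, and one labelled control 4, 5 or 6 would hold mild 0 h, so the labels of both groups are uncertain and are used here as deposited. By the same order, arrays labelled mild 0, 8 and 24 h would hold mild 8, 15 and 48 h. Those labelled mild 48 h would hold control 4, 5 and 6, and their mean is the divisor of every severe injury array. Control 4 to 6 also stood apart from control 1 to 3, with 2519 features higher (11.5%) and 68 lower (0.311%) at a limma adjusted p under 0.05, 11.8% in all. The median log2 ratio of 168 ribosomal, proteasome and oxidative phosphorylation genes was -0.08, 0.24 and 0.01 in mild 15 h replicates 1 to 3. It was 0.31, 0.34 and 0.34 in control 4 to 6, and 0.02, -0.20 and 0.15 in control 1 to 3. Mild 15 h replicate 1 had the widest log2 ratios of its group (SD 0.22 over features, against 0.14 and 0.11). By the slide given in the labels, numbered here in order, the mild 15 h arrays lay on chips 4, 1 and 2, and control 4 to 6 on chips 2, 3 and 3.

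At 15 h after mild injury, immediate early genes and a few stress and peptide genes were higher than in control 4 to 6, and a much larger number of genes, many cell division and proteasome genes among them, were lower. limma, fitted over the 18 arrays of that divisor, passed 2311 features, or 10.6%, at an adjusted p under 0.05. Of these, 151 rose (0.69% of all features) and 2160 fell (9.87%), while 5035 (23.0%) had an unadjusted p under 0.05. The changes were small. The median log2 difference was 0.39 among the features that rose and -0.44 among those that fell, with 6 rises and 10 falls of 1 or more, between extremes of 1.57 and -1.29. The 2 groups did not overlap in 1460 features that were higher (6.67%) and 4466 that were lower (20.4%) in mild 15 h.

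These counts depended on the control set, on the scaling and on whether the chip was in the model. Against control 1 to 3, limma passed 0 features (1154, or 5.27%, at an unadjusted p under 0.05), and against all 6 controls as 1 group it also passed 0 (2044, or 9.34%, unadjusted). With the chip as a block it passed 4 (0.0183%), Egr1 and Fos higher and Kpna1 and LOC503278 lower, the last pair named here after their values were seen. All 2311 features kept their sign in that fit, and Fos was 1.71 ± 0.22 and Fbl -1.01 ± 0.22, with standard errors larger than those below. Control replicates 5 and 6 were the only fitted arrays on chip 3, so the block took up their level. The control side of the differences in that fit therefore rested on control replicate 4 alone. Centring each array on the 168 housekeeping genes moved the median difference of all features to 0.25, against -0.02 as deposited, and passed 5903 (27.0%), 5480 higher (25.0%) and 423 lower (1.93%). Quantile normalization passed 544 (2.49%), 123 higher (0.562%) and 421 lower (1.92%), and median centring 2201 (10.1%), 279 higher (1.28%) and 1922 lower (8.78%). Without mild 15 h replicate 1 the count was 1091, and without control replicate 5 or replicate 6 it was 1024 each. With all 34 arrays in the fit it was 53. Called in the same direction as deposited and with quantile normalization, housekeeping centring and median centring were 408 features, 107 higher and 301 lower.

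Part of these features stood apart from control 1 to 3 as well. Of the 151 features that rose, 68 (45.0%) were higher in every mild 15 h array than in any of the 6 controls, as were 1.56% of all features. Of the 2160 that fell, 47 (2.18%) were lower than in any of the 6 controls, as were 0.722% of all features. The calls were made on the same mild 15 h arrays and on 3 of those controls, which by itself raises both shares, so they are given as a description.

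The transcription factors Fos and Egr1 had the largest rises. Fos, a subunit of AP-1, had log2 ratios of 0.10, -0.13 and 0.48 in mild 15 h arrays, against -1.51, -1.51 and -1.25 in control 4 to 6. Egr1, a zinc finger factor of growth and activity signalling, had 0.10, -0.14 and 0.16 in mild 15 h arrays, against -1.68, -1.42 and -1.43 in control 4 to 6. The mild 15 h arrays were thus close to the mean of control 1 to 3, and it was the control 4 to 6 arrays that were low. The difference was 1.57 ± 0.14 (SE, n = 3 each) for Fos, a 2.98-fold rise (limma adjusted p = 1.48e-05), and 1.55 ± 0.12 for Egr1, a 2.93-fold rise (limma adjusted p = 5.01e-06). Against control 1 to 3 it was 0.16 for Fos and 0.05 for Egr1 (limma adjusted p = 0.948 and 0.984). Within chip 2, where mild 15 h replicate 3 and control replicate 4 lay together, the difference of these single arrays was 1.99 for Fos and 1.84 for Egr1.

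Junb, Dusp1 and Zfp36, early response genes of which the last is not in the list used below, were among the 12 largest rises too. Junb, another AP-1 subunit, had log2 ratios of 0.80, 0.19 and 0.44 in mild 15 h arrays, against -0.57, -0.64 and -0.60 in control 4 to 6. Zfp36, which binds and destabilises cytokine mRNAs, had 0.90, -0.24 and 0.48 in mild 15 h arrays, against -1.02, -0.78 and -0.41 in control 4 to 6. Dusp1, a phosphatase that turns off MAP kinases, had 0.57, 0.21 and 0.32 in mild 15 h arrays, against -0.49, -0.53 and -0.52 in control 4 to 6. No mild 15 h array of the 3 genes overlapped control 4 to 6, as the rule for naming them required, and Zfp36 varied most, with replicate 2 close to control. The differences were 1.08 ± 0.18 for Junb, 1.12 ± 0.21 for Zfp36 and 0.88 ± 0.10 for Dusp1 (limma adjusted p = 0.00209, 0.00332 and 0.000508). Junb and Dusp1, but not Zfp36, were also above all control 1 to 3 arrays in all 3 mild 15 h arrays.

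The matricellular genes Ccn1 and Ccn2, which encode secreted proteins of cell adhesion and are targets of serum response factor and YAP, followed the pattern of Fos. Ccn1 had log2 ratios of 0.00, 0.09 and 0.09 in mild 15 h arrays, against -0.95, -0.71 and -0.89 in control 4 to 6. Ccn2 had 0.08, -0.06 and 0.21 in mild 15 h arrays, against -0.96, -0.77 and -0.62 in control 4 to 6. Both lay at the level of control 1 to 3 in mild 15 h arrays. The differences were 0.91 ± 0.13 and 0.86 ± 0.16 (limma adjusted p = 0.00105 and 0.0032).

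**Figure D1:**
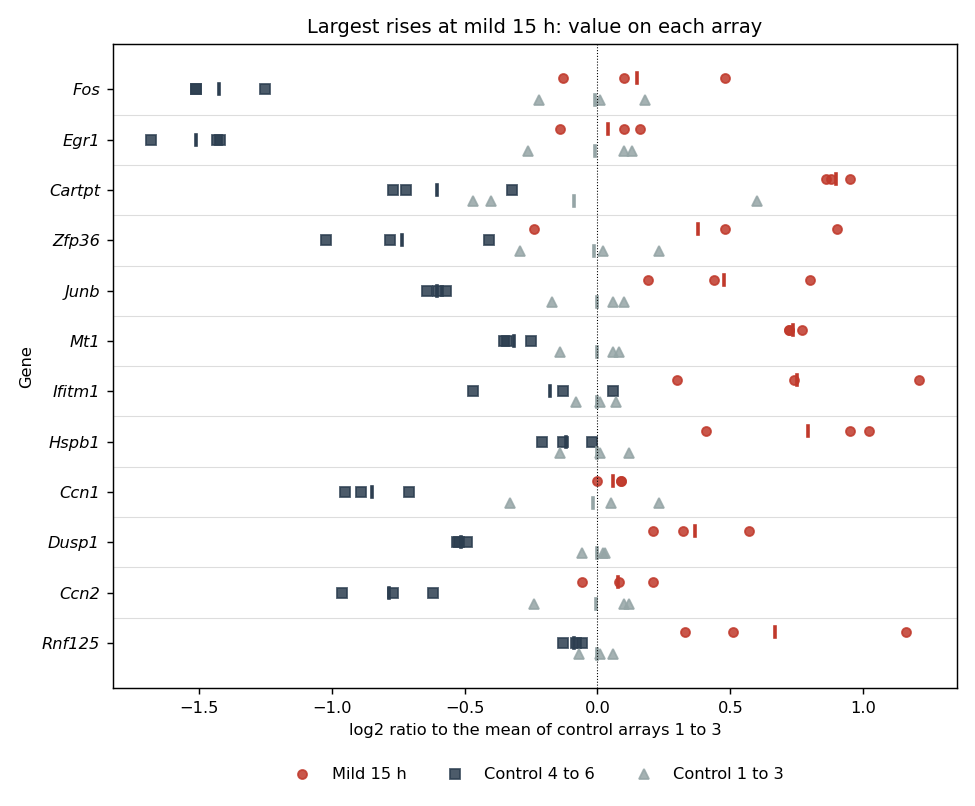
The 12 largest rises by the naming rule, with the log2 ratio to the mean of control arrays 1 to 3 on the horizontal axis; circles are mild 15 h arrays, squares control 4 to 6, triangles control 1 to 3, and short bars group means of 3 arrays. Fos, Egr1, Ccn1 and Ccn2 lie near 0 in mild 15 h and at or below -0.62 in every control 4 to 6 array, whereas Mt1 and Cartpt lie at 0.72 or above in every mild 15 h array.

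Over the whole list of immediate early genes, 16 of 32 measured members rose and 0 fell, with a median difference of 0.38, beside -0.02 over all features. Besides those above, the members that passed were Bdnf (0.67 ± 0.12) and, named here after their values were seen, Dusp6, Npas4, Egr2, Atf3, Arc, Egr4, Ier2, Btg2 and Gadd45b, at 0.63 to 0.31. Bdnf, a neurotrophin induced by synaptic activity, had 0.65, 0.27 and 0.32 in mild 15 h arrays, against -0.31, -0.24 and -0.22 in control 4 to 6. Not all of the list moved: Jun was 0.27 higher, Fosb 0.10, Egr3 0.03 and Nr4a1 0.00, and none of them passed. The list's median was 0.66 with housekeeping centring (27 rose) and 0.42 with quantile normalization (17 rose), but 0.14 against control 1 to 3 (0 rose). Leaving out 1 array at a time gave 13 to 17 rises and medians of 0.30 to 0.42.

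The promoters of Egr1 and Dusp1 were picked for display because they hold response elements that early genes are known for. The windows are RefSeq sequences on GRCr8, from 250 bases before to 50 bases after the start, 5′ to 3′ on the gene's strand: Egr1 at chr18:26736828-26737127 (plus strand) and Dusp1 at chr10:17184603-17184902 (plus strand). Capitals mark CArG boxes, the element bound by serum response factor, in Egr1, and a cyclic AMP response element, TGACGTCA, in Dusp1. Both strands were searched.
Egr1: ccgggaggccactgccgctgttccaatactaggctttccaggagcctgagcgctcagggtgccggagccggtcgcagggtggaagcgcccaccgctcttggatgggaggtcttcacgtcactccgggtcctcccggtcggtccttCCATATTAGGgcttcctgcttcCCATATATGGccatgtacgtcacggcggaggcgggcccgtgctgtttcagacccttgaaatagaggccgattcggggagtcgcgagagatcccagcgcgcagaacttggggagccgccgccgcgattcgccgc
Dusp1: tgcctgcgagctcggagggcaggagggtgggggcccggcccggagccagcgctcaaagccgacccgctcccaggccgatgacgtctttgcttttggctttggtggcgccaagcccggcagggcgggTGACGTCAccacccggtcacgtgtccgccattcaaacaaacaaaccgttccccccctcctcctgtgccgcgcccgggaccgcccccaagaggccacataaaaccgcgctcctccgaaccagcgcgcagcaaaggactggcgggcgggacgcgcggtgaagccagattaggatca
The 2 CArG boxes of Egr1 lay between -105 and -74 from the start, and 7 of 33469 RefSeq promoter windows (0.0209%) held 2 or more. At least 1 CArG box was found in 1.64% of all windows and the cyclic AMP response element in 1.83%. Not all of the largest rises held these elements. Zfp36 held a CArG box, but the windows of Junb, Ccn1 and Ccn2 held neither element. Mcm6, which fell, held a CArG box. A match describes these letters and is no measured binding site.

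Cartpt and Mt1 had closely spaced mild 15 h values. Cartpt, the precursor of the CART neuropeptides, had log2 ratios of 0.88, 0.95 and 0.86 in mild 15 h arrays, against -0.32, -0.77 and -0.72 in control 4 to 6. Mt1, a metallothionein that binds zinc and copper, had 0.77, 0.72 and 0.72 in mild 15 h arrays, against -0.25, -0.35 and -0.34 in control 4 to 6. Both genes were higher in every mild 15 h array than in all 6 controls. The differences were 1.5 ± 0.21 for Cartpt (2.82-fold) and 1.05 ± 0.14 for Mt1 (2.07-fold), each at a limma adjusted p of 0.000883. Against control 1 to 3 they were 0.98 and 0.74, which did not pass (limma adjusted p = 0.653 and 0.501). Within chip 2 they were 1.18 and 0.97.

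Hspb1, Ifitm1 and Rnf125 also exceeded all 6 controls in every mild 15 h array, with more spread among them. Hspb1, the small heat shock protein HSP27, had log2 ratios of 1.02, 0.41 and 0.95 in mild 15 h arrays, against -0.21, -0.13 and -0.02 in control 4 to 6. Ifitm1, an interferon-induced membrane protein, had 1.21, 0.30 and 0.74 in mild 15 h arrays, against -0.47, 0.06 and -0.13 in control 4 to 6. Rnf125, a ubiquitin ligase, had 1.16, 0.51 and 0.33 in mild 15 h arrays, against -0.06, -0.08 and -0.13 in control 4 to 6. The differences were 0.91 ± 0.18, 0.93 ± 0.22 and 0.75 ± 0.16 (limma adjusted p = 0.00427, 0.011 and 0.0074). Replicate 1 was the highest array for each of them. Ifitm1 was 0.71 without mild 15 h replicate 1 and 0.79 without control replicate 4, and it did not pass there (limma adjusted p = 0.0616 and 0.0541).

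Promoter windows of these genes are shown for the elements that match their known inducers: Cartpt at chr2:32991186-32991485, Mt1 at chr19:10832926-10833225 and Hspb1 at chr12:26432252-26432551, all on the minus strand. Capitals mark the cyclic AMP response element TGACGTCA in Cartpt, metal response elements (TGCACNC or TGCGCNC) in Mt1 and heat shock elements (GAANNTTC) in Hspb1.
Cartpt: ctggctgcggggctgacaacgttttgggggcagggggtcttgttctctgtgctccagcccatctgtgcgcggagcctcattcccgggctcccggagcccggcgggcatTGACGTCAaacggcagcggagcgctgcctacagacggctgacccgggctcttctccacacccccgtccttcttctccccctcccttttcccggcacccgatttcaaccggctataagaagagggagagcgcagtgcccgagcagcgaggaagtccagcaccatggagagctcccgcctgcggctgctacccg
Mt1: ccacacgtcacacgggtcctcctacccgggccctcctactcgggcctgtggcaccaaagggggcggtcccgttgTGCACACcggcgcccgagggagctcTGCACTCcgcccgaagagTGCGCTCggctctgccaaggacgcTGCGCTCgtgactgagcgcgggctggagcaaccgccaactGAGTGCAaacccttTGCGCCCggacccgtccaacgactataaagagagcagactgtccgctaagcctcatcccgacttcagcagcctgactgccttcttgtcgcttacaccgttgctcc
Hspb1: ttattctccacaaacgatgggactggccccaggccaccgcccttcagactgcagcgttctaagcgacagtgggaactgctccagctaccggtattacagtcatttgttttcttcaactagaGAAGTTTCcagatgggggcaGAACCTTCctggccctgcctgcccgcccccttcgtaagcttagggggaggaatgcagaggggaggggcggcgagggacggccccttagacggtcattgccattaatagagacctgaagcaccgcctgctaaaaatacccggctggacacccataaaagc
Mt1 held 6 metal response elements, a number reached by 13 of all windows (0.0388%), although 24.2% held at least 1. Genes that fell held metal response elements too, among them Ctps1 and Fbl. Hspb1 held 2 heat shock elements, and 8.59% of all windows held at least 1. Fos and Ifitm1 have no entry among the windows used here.

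Cell division genes had the lowest list median as deposited and with housekeeping centring. Cholesterol synthesis genes were lower with quantile normalization (-0.35, beside -0.34 for cell division), with the chip as a block (-0.53, beside -0.35) and without mild 15 h replicate 1 (-0.68, beside -0.42). Mcm6, a subunit of the replicative helicase, had log2 ratios of -0.78, -0.14 and 0.04 in mild 15 h arrays, against 0.52, 0.82 and 0.86 in control 4 to 6. Rrm2, which makes deoxynucleotides, had -0.93, -0.62 and 0.06 in mild 15 h arrays, against 0.13, 0.60 and 0.81 in control 4 to 6. Ccna2, the S and G2 phase cyclin A2, had -0.69, -0.41 and -0.05 in mild 15 h arrays, against 0.33, 0.74 and 0.81 in control 4 to 6. In all 3 genes mild 15 h replicate 1 was lowest, and control 4 to 6 was above the mean of control 1 to 3. The differences were -1.02 ± 0.17 for Mcm6, -1.01 ± 0.21 for Rrm2 and -1.01 ± 0.16 for Ccna2 (limma adjusted p = 0.00218, 0.0056 and 0.00179). Against control 1 to 3 they were -0.27, -0.48 and -0.36 (limma adjusted p = 0.93, 0.926 and 0.927).

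Of the 37 measured cell division genes 24 fell (64.9%, beside 9.87% of all features) and 0 rose, with a median difference of -0.49. They covered replication and mitosis alike, with Cdk1 at -0.84 ± 0.20, Pcna at -0.76 and Bub1b at -0.73, the last pair chosen after their values were seen. Pcna and Cdk1 did not pass in every fit without 1 array (limma adjusted p up to 0.103 and 0.0729). Mki67, a proliferation marker, was -0.18 and Ccnb1 0.07, and neither passed. The median was -0.22 with housekeeping centring (14 fell, 3 rose), -0.34 with quantile normalization (11 fell) and -0.15 against control 1 to 3 (0 fell). On the arrays, the list's median was -0.28, -0.08 and -0.03 in mild 15 h, against 0.21, 0.46 and 0.52 in control 4 to 6. Without control replicate 5 the count that fell was 16, the lowest when 1 array was left out. In bulk RNA, fewer cells of a type and less RNA per cell cannot be told apart.

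The Mcm6 promoter is shown because E2F factors are known to drive replication genes; it lies at chr13:42404303-42404602 on the minus strand. Capitals mark 2 E2F matches that overlap, one on each strand, from a search on both strands for TTTCCCGC, TTTGGCGC, TTTCGCGC and TTTGCCGC.
Mcm6: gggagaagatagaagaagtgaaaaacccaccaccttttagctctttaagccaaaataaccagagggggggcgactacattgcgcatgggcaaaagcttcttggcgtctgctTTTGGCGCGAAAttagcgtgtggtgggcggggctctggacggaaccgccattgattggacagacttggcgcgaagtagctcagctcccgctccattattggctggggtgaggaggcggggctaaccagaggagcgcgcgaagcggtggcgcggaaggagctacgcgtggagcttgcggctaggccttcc
A match to any of the 4 was found in 2.14% of all windows. Of the 24 genes with the largest changes, 19 have a window.

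The other large falls lay outside that list but included further replication genes. Pclaf, a partner of the sliding clamp PCNA, had log2 ratios of -1.09, -0.14 and -0.08 in mild 15 h arrays, against 0.55, 0.59 and 0.73 in control 4 to 6. Pole2, a subunit of DNA polymerase epsilon, had -0.57, -0.10 and -0.05 in mild 15 h arrays, against 0.66, 0.76 and 0.79 in control 4 to 6. Ctps1, which makes CTP, had -0.61, -0.09 and -0.08 in mild 15 h arrays, against 0.67, 0.72 and 0.83 in control 4 to 6. In each of them replicates 2 and 3 of mild 15 h were near the mean of control 1 to 3 and replicate 1 was well below it. The differences were -1.06 ± 0.20, -0.97 ± 0.14 and -1.0 ± 0.16 (limma adjusted p = 0.00291, 0.00105 and 0.00174).

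Sfpq, Fbl and Kpna2 were also among the 12 largest falls. Sfpq, a splicing factor of paraspeckles, had -1.08, -0.13 and -0.21 in mild 15 h arrays, against 0.44, 0.63 and 0.64 in control 4 to 6. Fbl, the ribosomal RNA methyltransferase fibrillarin, had -0.67, 0.07 and -0.13 in mild 15 h arrays, against 0.74, 0.78 and 0.79 in control 4 to 6. Kpna2, a nuclear import receptor, had -0.76, -0.24 and -0.09 in mild 15 h arrays, against 0.56, 0.68 and 0.73 in control 4 to 6. The differences were -1.05 ± 0.19, -1.01 ± 0.15 and -1.02 ± 0.18 (limma adjusted p = 0.00244, 0.00105 and 0.0022), and again replicate 1 was lowest.

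Ppp1r3b had the largest fall of all. This subunit, which directs protein phosphatase 1 to glycogen, had -0.63, -0.75 and -0.16 in mild 15 h arrays, against 0.33, 0.93 and 1.07 in control 4 to 6. The difference was -1.29 ± 0.25 (limma adjusted p = 0.00409), and control 1 to 3 alone spanned -0.73 to 0.35. Ces1d, a carboxylesterase, fell by 1.01 ± 0.14 on the log2 scale (limma adjusted p = 0.000975). Lum, the matrix proteoglycan lumican, was -0.52, -0.06 and -0.05 in mild 15 h arrays, against 0.90, 0.66 and 0.74 in control 4 to 6, a difference of -0.98 ± 0.17 (limma adjusted p = 0.0022). None of the 12 largest falls was below all 6 controls, whereas 7 of the 12 largest rises were above them. These 24 genes passed as deposited by the rule that named them. All 24 passed with the other 3 scalings of the same arrays too, and 23 passed without each array in turn (not Ifitm1). Housekeeping centring raised every difference, which by itself enlarges the rises. Against control 1 to 3, 0 features passed, so none of these 24 did. All 24 had the same sign within chip 2, which was fixed by the rule, as it required groups that do not overlap.

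**Figure D2:**
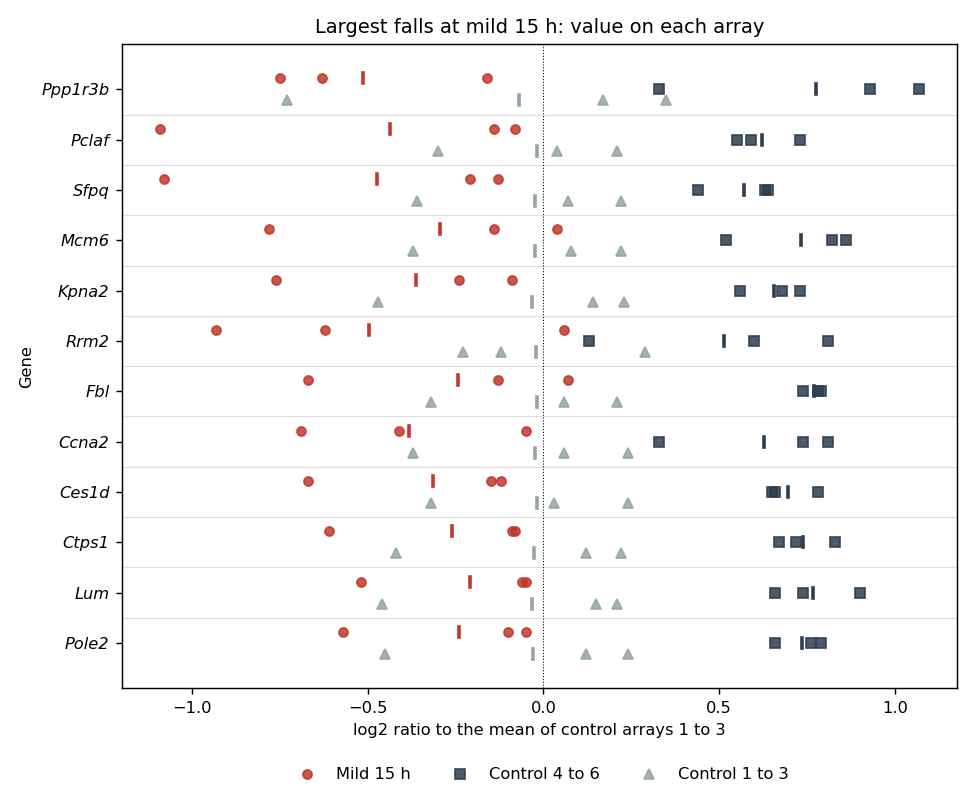
The 12 largest falls by the naming rule, drawn as for the rises, with the log2 ratio to the mean of control arrays 1 to 3 on the horizontal axis. Mild 15 h arrays (circles) lie left of control 4 to 6 arrays (squares) for every gene, while control 1 to 3 arrays (triangles) overlap the mild 15 h arrays.

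Proteasome and oxidative phosphorylation subunits were lower together by small amounts. Of 33 proteasome subunits 25 fell (75.8%, beside 9.87% of all features) and 0 rose (median -0.42). They were led by Psmc5 (-0.66 ± 0.10), an ATPase of the cap. Psmc5 had log2 ratios of -0.47, -0.09 and -0.35 in mild 15 h arrays, against 0.43, 0.28 and 0.35 in control 4 to 6. Of 58 oxidative phosphorylation subunits 28 fell (48.3%) and 0 rose (median -0.34). Among them were Ndufs1, a subunit of complex I, at -0.59 ± 0.12 and Cyc1, cytochrome c1 of complex III, at -0.52 ± 0.11. Ndufs1 had -0.22, -0.14 and 0.02 in mild 15 h arrays, against 0.39, 0.46 and 0.58 in control 4 to 6. These counts rested on single arrays: without mild 15 h replicate 1 they were 5 proteasome and 4 oxidative phosphorylation subunits. Both lists are part of the housekeeping set, and with centring on it 4 and 2 members fell. Against control 1 to 3 the medians were -0.02 and 0.03. Ribosomal protein genes fell in 4 of 77 (5.19%, below the 9.87% of all features; median -0.18), and their median was 0.09 with housekeeping centring and 0.12 against control 1 to 3.

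Cholesterol synthesis genes fell in 11 of 27 members (40.7%, beside 9.87% of all features) and rose in 0, with a median of -0.45. Fdps, which makes farnesyl diphosphate, had log2 ratios of 0.27, 0.13 and -0.33 in mild 15 h arrays, against 0.93, 0.89 and 0.78 in control 4 to 6, a difference of -0.84 ± 0.15 (limma adjusted p = 0.00233). Mvd, of the mevalonate pathway, was 0.83, -0.15 and -0.41 in mild 15 h arrays, against 1.03, 0.89 and 0.94 in control 4 to 6 (-0.86 ± 0.24). Here mild 15 h replicate 1 was the array nearest to control 4 to 6, unlike in the cell division genes. The list's median on the arrays was 0.50, 0.03 and -0.13 in mild 15 h, against 0.61, 0.61 and 0.65 in control 4 to 6. Without mild 15 h replicate 1, 21 members fell (median -0.68), and without replicate 3, 4 fell. Against control 1 to 3 the median was 0.13, and with housekeeping centring -0.18.

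Part of the stress response and chaperone genes fell. In the list for the unfolded protein response and the integrated stress response, 19 of 51 members fell (37.3%, beside 9.87% of all features). In that list 1 member, Atf3, rose, and the median was -0.31. Hspa5, the chaperone BiP, had -0.57, -0.18 and 0.01 in mild 15 h arrays, against 0.42, 0.54 and 0.63 in control 4 to 6 (-0.78 ± 0.14, limma adjusted p = 0.00256). Creld2, induced with it, fell by 0.88 ± 0.15 and Ddit4, an inhibitor of mTORC1 that is also in the hypoxia list, by 0.82 ± 0.11. Of 35 heat shock chaperones 14 fell (40.0%) and only Hspb1 rose (median -0.26). Among those that fell were Fkbp5 (-0.89 ± 0.15), a cochaperone of steroid receptors, and Chordc1 (-0.64 ± 0.13). Others that fell, chosen after their values were seen, were the tRNA synthetases Wars1 (-0.62) and Aars1 (-0.60), the endoplasmic reticulum chaperone Hsp90b1 (-0.59) and the constitutive chaperone Hspa8 (-0.55). With housekeeping centring the medians were -0.04 and 0.01, with 9 risen and 8 fallen in the stress response list and 6 risen and 4 fallen among chaperones, and against control 1 to 3 0.02 and -0.03. Without control replicate 6 the falls in the stress response list numbered 10, and without mild 15 h replicate 1 those among chaperones numbered 7.

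**Figure D3:**
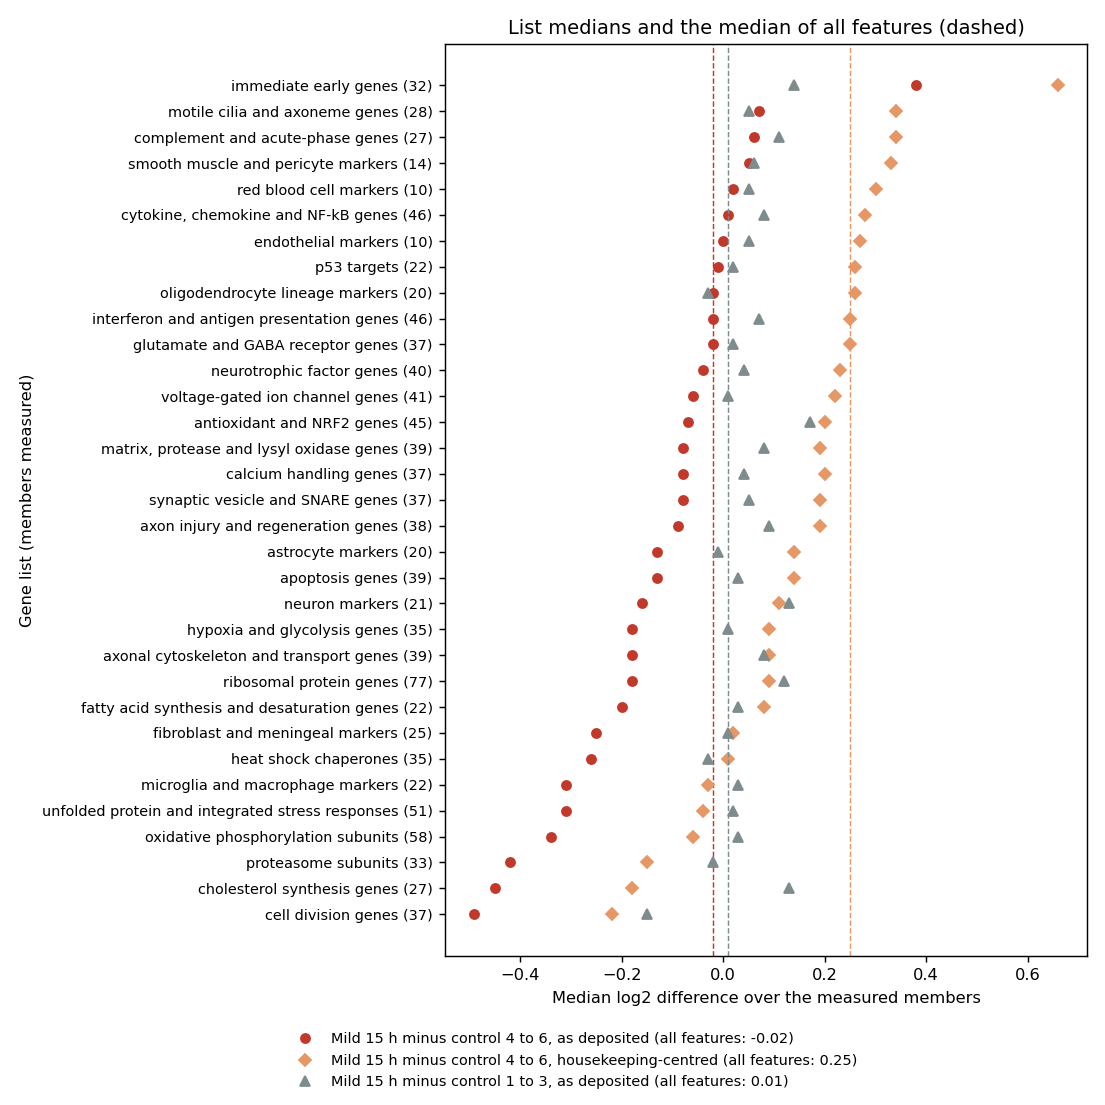
Median log2 difference of each of the 33 gene lists, with the number of measured members in brackets; circles are mild 15 h minus control 4 to 6 as deposited, diamonds the same with housekeeping centring, triangles mild 15 h minus control 1 to 3, and dashed lines the medians of all features (-0.02, 0.25 and 0.01). Immediate early genes lie highest and cell division genes lowest with either scaling, while 27 of 33 medians are below 0 as deposited, 6 with housekeeping centring and 5 against control 1 to 3.

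Not all calls were stable: of 104 named genes that passed, 50 lost the call when at least 1 of the 6 arrays was left out. They include Ifitm1, Mvd, Cdk1, Cycs, C1qc, Cd68, Ctss, Col1a1, Dcn, Cxcl12, Cxcl13, Dlg3, Drc1, Enkur, Eif4g3, Fgfr3, Lcp1, Mgst1, Nrtn, Perp, Ppp3ca, Ppp3r1, Slc32a1, Tspan2, Tubb3 and Vsnl1.

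Genes of axon injury and repair did not move together. Of 38 members 2 rose (5.26%, beside 0.69% of all features), Hspb1 and Atf3. A further 3 fell (7.89%, below the 9.87% of all features), and the median was -0.09. Sox11, a transcription factor of axon growth, had -0.08, 0.00 and 0.07 in mild 15 h arrays, against 0.59, 0.60 and 0.74 in control 4 to 6 (-0.65 ± 0.12, limma adjusted p = 0.00279), a level near the mean of control 1 to 3. Axonal cytoskeleton and transport genes fell in 5 of 39 (12.8%, near the 9.87% of all features), among them Tubb5 (-0.61 ± 0.13) and the neuronal tubulin Tubb3 (-0.49 ± 0.13), and rose in 0. Their median was -0.18, but 0.09 with housekeeping centring and 0.08 against control 1 to 3.

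Neurotrophic factor genes went both ways, with 4 risen (10.0%, beside 0.69% of all features) and 2 fallen (5.0%) of 40 (median -0.04), but 1 risen without mild 15 h replicate 1. Ngfr, the p75 neurotrophin receptor, had -0.30, -0.30 and -0.24 in mild 15 h arrays, against 0.50, 0.53 and 0.55 in control 4 to 6 (-0.81 ± 0.13, limma adjusted p = 0.00174). Nrtn, the growth factor neurturin, was 0.55 ± 0.15 higher with mild 15 h replicate 1 at 1.01 and replicates 2 and 3 at 0.31 and 0.16. Antioxidant genes rose in 2 of 45 (4.44%, beside 0.69% of all features), Mt1 and Mgst1, a glutathione transferase at 0.59 ± 0.18 whose groups overlapped. A further 2 of them fell (4.44%, below the 9.87% of all features), Prdx3 (-0.34 ± 0.09) and Taldo1 (-0.32 ± 0.08), and the list's median was -0.07. Without mild 15 h replicate 1, 1 antioxidant gene rose, and without mild 15 h replicate 3, 0 fell. Calcium handling genes rose in 1 and fell in 4 of 37 (10.8%, near the share of all features), and 1 fell without control replicate 6. Vsnl1, a neuronal calcium sensor, had 0.21, -0.08 and 0.10 in mild 15 h arrays, against -0.58, -0.65 and -0.35 in control 4 to 6 (0.60 ± 0.14), while the calcineurin subunits Ppp3ca and Ppp3r1 fell by 0.43 and 0.46.

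Inflammatory and interferon genes showed few calls. Cytokine, chemokine and NF-kB genes had 0 rises and 2 falls among 46 (4.35%, below the 9.87% of all features). These were Cxcl13 (-0.53 ± 0.14) and Cxcl12 (-0.45 ± 0.12). Cxcl1 and Ccl2, chemokines chosen here after their values were seen, differed by 1.41 and 1.02 and did not pass. Mild 15 h replicate 1 stood apart in both: Cxcl1 was 2.74, -0.19 and 0.41 in mild 15 h arrays, against -0.79, -0.29 and -0.17 in control 4 to 6. Ccl2 was 3.07, 0.10 and 0.76 in mild 15 h arrays, against 0.10, 0.32 and 0.44 in control 4 to 6. Ifitm1 was the only one of 46 interferon and antigen presentation genes to rise (2.17%, beside 0.69% of all features). C1qc (-0.81 ± 0.26) was the only one of 27 complement and acute-phase genes to fall (3.7%). Apoptosis genes fell in 8 of 39 (20.5%, above the 9.87% of all features) and rose in 0. Among those that fell were Cycs (-0.64 ± 0.15), the cytochrome c that starts the apoptosome, and Casp2 (-0.56 ± 0.12). Hypoxia and glycolysis genes fell in 8 of 35 (22.9%). Among p53 targets, 2 of 22 rose (9.09%, beside 0.69% of all features) and 3 fell (13.6%). They included Aen (-0.68 ± 0.10), an exonuclease, and Perp (0.36 ± 0.11), a junction protein. The shares that fell were below the 9.87% of all features in 4 further lists. They were 7.32% of voltage-gated channel genes (3 of 41), 2.7% of glutamate and GABA receptor genes (1 of 37, Dlg3 at -0.35 ± 0.09), 5.41% of synaptic vesicle genes (2 of 37) and 9.09% of fatty acid synthesis genes (2 of 22). Matrix and protease genes fell in 6 of 39 (15.4%), among them Nid2 (-0.70), a basement membrane protein. Motile cilia genes rose in 3 of 28 (10.7%, beside 0.69% of all features), Dynlrb2 (0.47 ± 0.08), Enkur (0.43 ± 0.10) and Drc1 (0.24 ± 0.07), and fell in 0. Single arrays moved several of these counts. The lowest number of falls was 3 for apoptosis, 3 for hypoxia and 1 for ribosomal protein genes, each without mild 15 h replicate 1, and 2 for axonal cytoskeleton and 0 for fatty acid synthesis genes, both without control replicate 5. It was 0 for synaptic vesicle and channel genes without mild 15 h replicate 3 and 3 for matrix genes without mild 15 h replicate 2. Without control replicate 6, 1 of the motile cilia genes rose. The calls for cytokine and interferon genes and the rises among p53 targets were 0 without mild 15 h replicate 1.

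Among the marker lists of neurons, glia, fibroblasts, vessel cells and red blood cells, limma called falls and 0 rises. Markers of ependymal cells are part of the motile cilia list above, where 3 of 28 rose (10.7%, beside 0.69% of all features) and 0 fell. Dynlrb2 and Enkur were among those that rose, and without control replicate 6, 1 gene of that list rose. Microglia and fibroblast markers had median differences of -0.31 and -0.25, beside -0.02 over all features, and 22.7% and 24.0% of them fell, beside 9.87%. With housekeeping centring these medians were -0.03 and 0.02, and against control 1 to 3 they were 0.03 and 0.01. Ratios carry no level, so whether a marker was detected could not be checked and no summed level can be given; the median log2 ratio of each list on the arrays is given instead. Neuron markers fell in 3 of 21 (14.3%, beside 9.87% of all features; 1 without mild 15 h replicate 3), with array medians of 0.08, 0.18 and -0.03 in mild 15 h, against 0.37, 0.25 and 0.23 in control 4 to 6. Their fallen members were Neurod6 (-0.60 ± 0.12), a cortical neuron factor, Tubb3 and Slc32a1, the GABA transporter of vesicles. Microglia markers fell in 5 of 22, with medians of 0.16, -0.12 and 0.06 in mild 15 h, against 0.37, 0.21 and 0.23 in control 4 to 6. Ctss, a microglial protease, was -0.83 ± 0.23 and Cd68 -0.83 ± 0.26, and at most 2 of the 22 passed when 1 array was left out, 0 of them without mild 15 h replicate 3. Fibroblast and meningeal markers fell in 6 of 25, 2 of which passed without control replicate 6, with Lum, Dcn (-0.65 ± 0.16) and Col1a1 (-0.64 ± 0.19), and medians of 0.15, -0.09 and 0.00 in mild 15 h, against 0.13, 0.32 and 0.44 in control 4 to 6. C1qc and Fgfr3 each count in 2 lists, as do some other members. Astrocyte and oligodendrocyte markers fell in 1 of 20 each (5.0%), Fgfr3 (-0.40 ± 0.12) and Tspan2 (-0.33 ± 0.10). limma called 0 endothelial (of 10), smooth muscle (of 14) and red blood cell markers (of 10), and at an unadjusted p under 0.05 there was 1, a red blood cell marker that was higher. The part of these cell types in the falls was not tested.

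**Figure D4:**
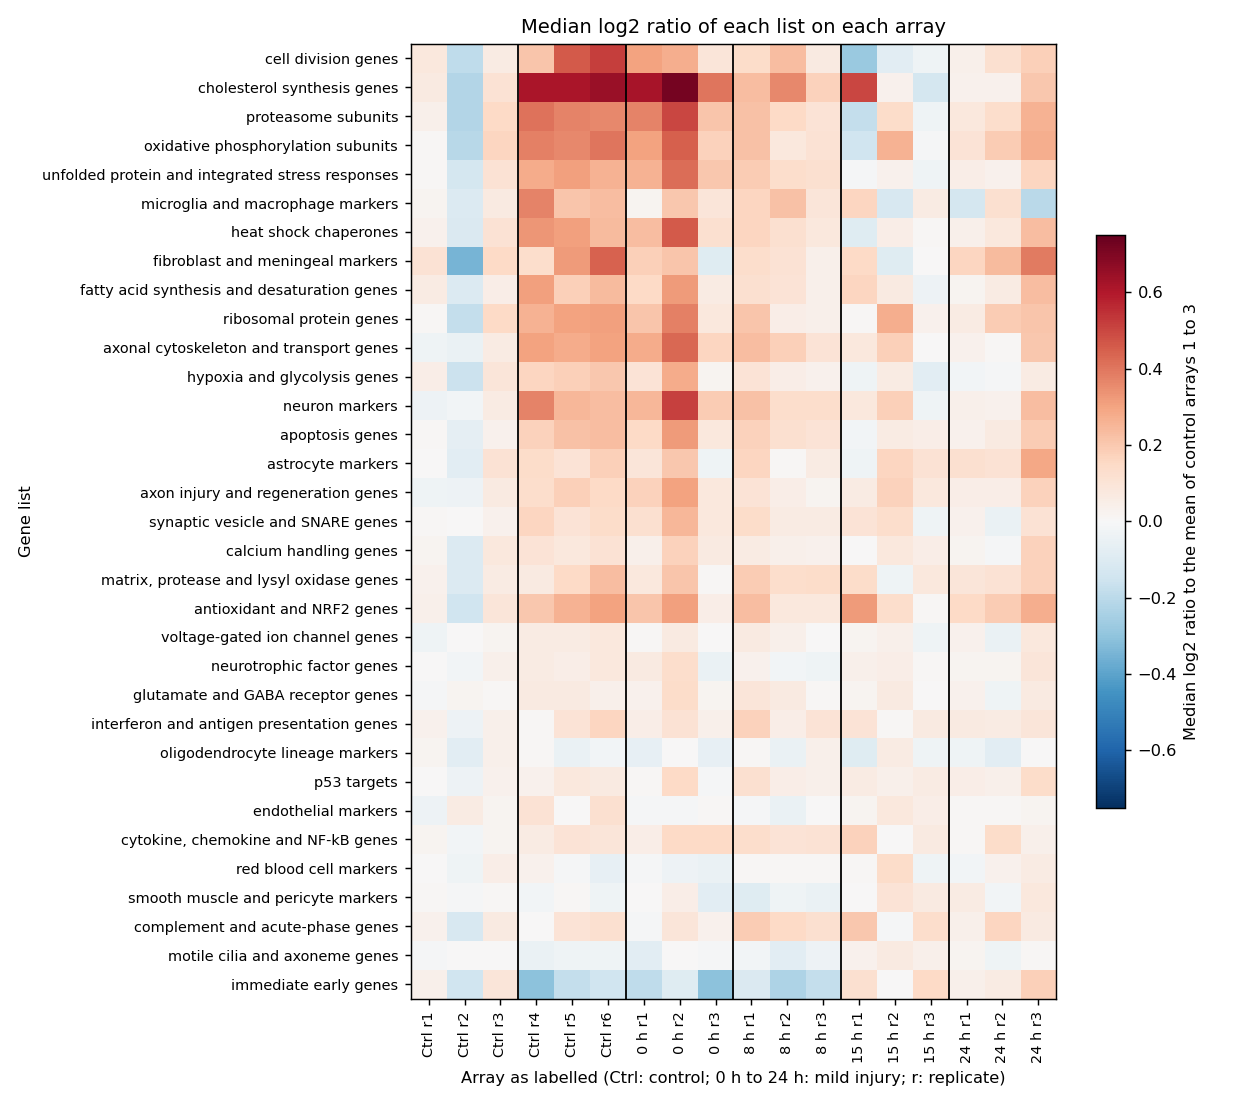
Median log2 ratio of the members of each list (rows) on each of the 18 arrays with a common divisor (columns, grouped by label), as a colour from blue (below the mean of control arrays 1 to 3) to red (above it). Cholesterol synthesis genes are at 0.61, 0.61 and 0.65 in control 4 to 6 and immediate early genes at -0.31, -0.18 and -0.15. In mild 15 h replicate 1, cholesterol synthesis (0.50) and antioxidant genes (0.32) are high and cell division genes (-0.28) low. In its replicate 2, ribosomal protein (0.27) and oxidative phosphorylation genes (0.26) are high.

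The neighbouring times are named by the deposited labels, which are as uncertain as those of mild 15 h. Against mild 8 h, limma passed 83 features (0.379%), 31 higher (0.142%) and 52 lower (0.238%), and 2477 (11.3%) had an unadjusted p under 0.05. Egr1 rose by 1.33 ± 0.12 on the log2 scale and Fos by 1.28 ± 0.14, against mild 8 h values of -1.16, -1.49 and -1.24 for Egr1 and -0.95, -1.36 and -1.08 for Fos. Cartpt (1.22 ± 0.21), Ccn2 (0.97 ± 0.16) and Ccn1 (0.94 ± 0.13) were the next largest rises. Immediate early genes rose in 8 of 32, beside 0.142% of all features, and fell in 0, with a median of 0.39. The means of Fos and Egr1 were low in control 4 to 6, mild 0 h and mild 8 h alike, at -1.42, -1.12 and -1.13 for Fos and -1.51, -1.39 and -1.29 for Egr1. At mild 24 h the means were 0.09 and 0.05.

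The 5 largest falls against mild 8 h included genes of immune cells. Rac2, a GTPase of blood cells, was 0.56, -0.03 and 0.21 in mild 15 h arrays, against 1.24, 1.33 and 1.14 in mild 8 h arrays (-0.99 ± 0.18, limma adjusted p = 0.0216). Il1b, the cytokine interleukin 1 beta, was 0.29, -0.06 and -0.01 in mild 15 h arrays, against 0.83, 1.17 and 0.84 in mild 8 h arrays (-0.87 ± 0.18, limma adjusted p = 0.0402). Lcp1, an actin-bundling protein of leukocytes, fell by 0.86 ± 0.15, Sfpq by 0.87 ± 0.19 and Eif4g3, a translation initiation factor, by 0.81 ± 0.15. Against control 4 to 6, Rac2 and Il1b differed by -0.27 and -0.18 and did not pass, and Lcp1 (-0.50 ± 0.15) did. Arrays of the same number lay on the same chip at 8 and 15 h. With that number as a replicate block, and only the mild 0, 8, 15 and 24 h arrays fitted, limma passed 7 features, 6 higher and 1 lower. That fit differs from the one above in its arrays as well as in the block. Egr1, Fos, Cartpt and Ccn1 passed there (limma adjusted p = 0.00618 to 0.0376), Ccn2 did not (0.104), and neither did any of the 5 falls (0.119 to 0.126), at differences equal to those above. Without mild 8 h replicate 2 the count against mild 8 h was 6, without replicate 3 of mild 8 h 13 and without its replicate 1 it was 14.

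Against mild 24 h, limma passed 0 features, with 1976 (9.03%) at an unadjusted p under 0.05, and 1 when only the 6 arrays were fitted. Among the largest rises against control 4 to 6, Egr1 differed by -0.01 ± 0.12, Fos by 0.07 ± 0.14 and Mt1 by 0.25 ± 0.14 between the 2 times. Cartpt was 0.88, 0.95 and 0.86 in mild 15 h arrays, against 0.04, 0.03 and 0.18 at mild 24 h, a difference of 0.81 ± 0.21 that did not pass (limma adjusted p = 0.416). A missed threshold does not show that the 2 times were alike.

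**Figure D5:**
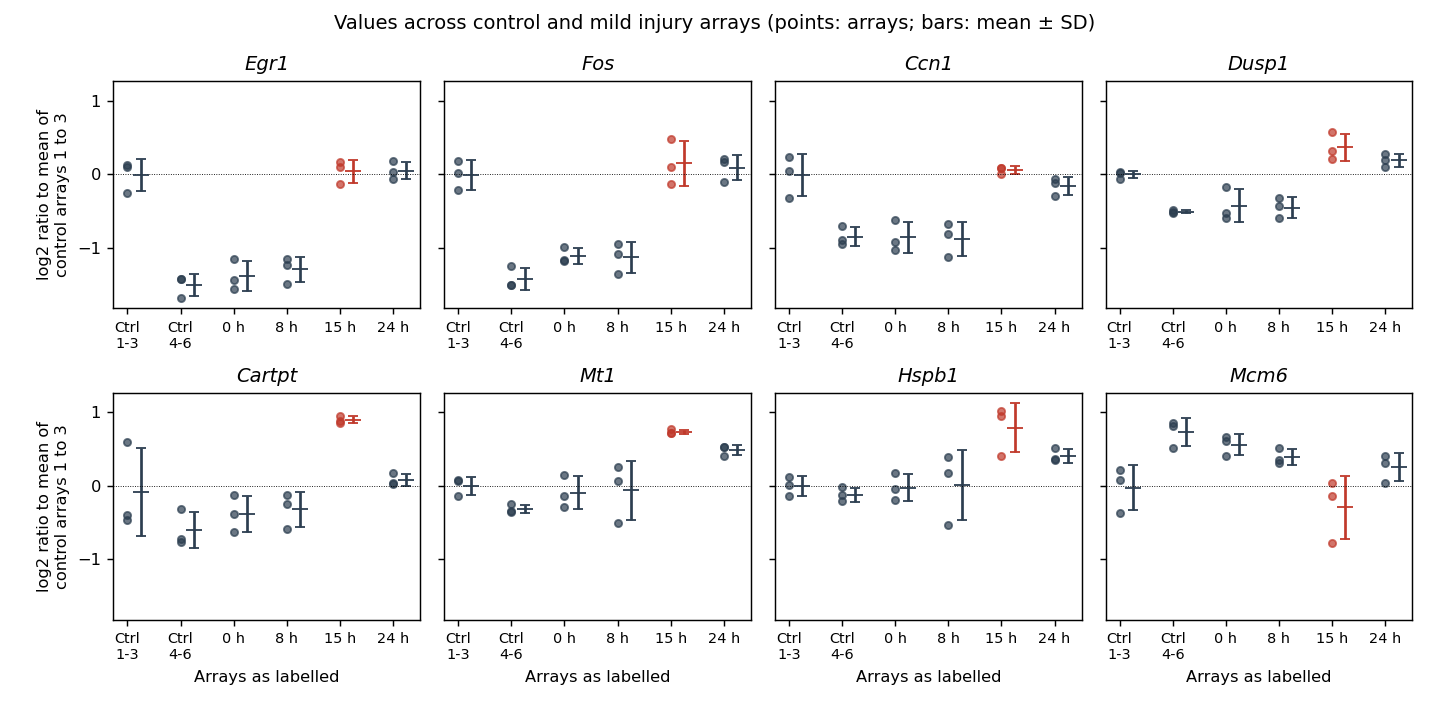
Log2 ratio to the mean of control arrays 1 to 3 for 8 genes across the control sets and the mild injury times 0, 8, 15 and 24 h as labelled; points are arrays, bars the mean ± SD of 3 arrays, and mild 15 h is in red. Egr1, Fos and Ccn1 are low in control 4 to 6, mild 0 h and mild 8 h and near 0 in mild 15 h, mild 24 h and control 1 to 3, while Cartpt and Mt1 are highest at mild 15 h.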

How the data were processed

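Expression was measured on Illumina RatRef-12 bead arrays. The authors deposited 1 ratio per probe and array, and each array of the 18 used here is a ratio to a mean of control arrays. That the divisor is the mean of control 1 to 3 was found from the values, as the background correction and normalization are not given in the sources used here. A ratio to a shared divisor hides the signal level, so dim probes could not be filtered, and precision is limited by how many arrays there are. Another deposited table holds 34 columns of per-sample signals whose headers match no label. Each ratio array closely matched 1 of these columns, once the column was divided by its own median and by the mean of the divisor arrays. That match served to check the divisor and gave the array order described above. No column was assigned to a sample, and no signal level from this table was used in any comparison.

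The log2 of the ratios was taken with no pseudocount (lowest ratio 0.234). Of 22226 probes, 13192 were named by the platform annotation, 363 by accession and 8566 from the description, and 325 genes with several probes were averaged, giving 21881 features. limma 3.58.1 (R 4.3.3; tables with Python 3.11.15) fitted 6 groups of 3 arrays, with Benjamini-Hochberg adjustment over all features, an adjusted p under 0.05 as the call, and 12 residual degrees of freedom. "Rose" and "fell" mean called. The fit was tested on simulated data.

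Named genes are the 12 largest rises and falls among called genes whose arrays do not overlap, up to 4 called members per gene list with the largest difference, and up to 5 per direction against mild 8 h and 24 h. The members and the 33 lists (1060 of 1187 genes measured) were chosen with earlier results of these data known. Genes named outside that rule are said to be so. Some genes are not reported here. Alternatives were other scalings, control sets, sample sets, the chip or the replicate number as a block, and leaving out each array.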

Additional observations from a re-analysis of the deposited data

How the results depend on the processing

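The 2311 calls against control 4 to 6 became 53 with all 34 arrays fitted, 544 with quantile normalization, 5903 with housekeeping centring, 4 with the chip as a block, and 0 against control 1 to 3, against all 6 controls, or against control 1 to 3 with quantile normalization, which was added after seeing the data. Leaving out 1 array gave 1024 to 2785, and fitting only the 6 arrays, median centring, robust moderation and single probes gave 2201 to 2336. Of the calls as deposited, 573 kept direction and call with housekeeping centring and 527 with quantile normalization. No paired analysis was possible because mild 15 h and control 4 to 6 share no replicate number. The replicate block was fitted on the mild 0, 8, 15 and 24 h arrays alone. It gave 7 calls against mild 8 h (the number follows the chip there) and 0 against mild 24 h. Deviations from the group mean were correlated between same-numbered arrays of mild 15 h and another time. The values were -0.116 to 0.205 for mild 0 h, -0.076 to 0.08 for mild 8 h and -0.099 to 0.156 for mild 24 h. With 3 arrays a group they cannot decide whether the numbers pair the arrays. The 83 calls against mild 8 h became 25 with the 6 arrays, 0 with all 34, 250 with quantile normalization, 149 with median centring and 6 to 118 without 1 array. The 0 calls against mild 24 h became 1 with the 6 arrays and 0 to 2 without 1 array (2 without mild 15 h replicate 3). Of 33 list medians, 27 were below 0 as deposited, 16 with quantile normalization, 6 with housekeeping centring, 5 against control 1 to 3, and 8 against it with quantile normalization. Of 112 named genes, 25 changed sign against control 1 to 3: Acat2 0.026, Acly 0.111, Aen 0.007, C1qc 0.295, Cacnb3 0.018, Camkk1 0.077, Cd68 0.264, Chordc1 0.008, Col1a1 0.02, Ctss 0.047, Cxcl12 0.034, Dlg3 0.048, Dpysl2 0.072, Ei24 0.006, Fdps 0.036, Lcp1 0.113, Mvd 0.135, Prdx3 0.148, Psph 0.04, Rpl18 0.038, Slc32a1 0.075, Sox11 0.002, Taldo1 0.072, Trem2 0.156 and Tubb3 0.06 (log2 differences). With quantile normalization and control 1 to 3, 17 did: C1qc 0.238, Cacnb3 0.016, Camkk1 0.049, Cd68 0.189, Ctss 0.039, Cxcl12 0.042, Dlg3 0.047, Dpysl2 0.064, Drc1 -0.015, Dynll1 0.013, Lcp1 0.112, Prdx3 0.126, Rpl18 0.028, Slc32a1 0.077, Taldo1 0.06, Trem2 0.124 and Tubb3 0.026. The cause of these changes was not tested. Limits: ratios without a level, 3 arrays a group, control sets that differ from each other in 2587 features, labels in doubt, and chips that only partly overlap between the groups. With the chip as a block, the control side rested on control replicate 4 alone.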
